A study of Homo sapiens with 5 samples.

Results

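NAIP, other NOD-like receptors and the genes that act with them in inflammasomes were followed in cells labelled RS4.11. That label is read here as RS4;11, a human acute leukemia line that carries an MLL rearrangement. The identity of the line was not tested, and markers of its known cell type were largely dim, as described below. The list names 10 genes, and a gene was included where a probe of the array's annotation named it and no other gene. This left 9 of the 10 genes, measured by 11 probes, among 18417 genes in all. For NAIP every probe was read, and for the others the probe that was brightest on average across the 5 arrays. NLRP1 was left out, because its probe also names a second gene. The cells had received 10 uM SB216763, which blocks the kinase GSK-3, for 20 h (3 arrays), or the solvent DMSO for 20 h (2 arrays, called control). All 5 arrays held total RNA of this 1 line, so they carry no spread between donors. Separate cultures are not mentioned in the labels, so p-values here reflect only how these arrays vary, possibly for technical reasons.

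NAIP and NLRC4 form 1 inflammasome: NAIP proteins bind bacterial flagellin or parts of the needle that bacteria use to inject proteins, and then start the assembly of NLRC4. NLRC4, NLRP3, NLRP1 and the DNA sensor AIM2 all activate the protease encoded by CASP1, in most cases through the adaptor encoded by PYCARD. The protease matures the cytokines IL18 and IL1B and cuts gasdermin D, which opens pores in the cell membrane. NOD1 and NOD2 recognise fragments of bacterial cell wall and signal through the kinase RIPK2 to NF-kB rather than through CASP1. These genes are best known from monocytes and macrophages and from epithelia.

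Values are log2 expression values, differences are log2 differences of the group means (SB216763 minus control), and SE is the standard error of the fit. A gene was called where the p-value from limma, adjusted by the Benjamini-Hochberg method over all genes, was under 0.05. As background, the 95th percentile over 341 olfactory receptor genes was taken on each array, and it lay between 5.98 and 6.19. Levels of different genes are not set against each other, because probes differ in how brightly they bind. In bulk RNA, a change in the number of cells that carry a transcript and a change in its level per cell cannot be told apart.

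The receptor pair NAIP and NLRC4, the protease gene CASP1 and the cytokine gene IL18 were all higher with SB216763, NOD2 was higher as well, and NLRP3 was lower. Of the 8 members other than NAIP, limma called 4 higher and 1 lower and did not call 3. Over all genes 13.1% were called, 7.21% higher and 5.92% lower. Of the 8 members, 6 were above background on all arrays, and of the 12071 such genes 18.2% were called in either direction. The groups did not overlap for 6 of the 8, against 41.4% of all genes. The median difference of the 8 members was 0.34, and it was 0.00 over all genes. All members were chosen with earlier results of these arrays known, so these counts are a description and no independent support. NAIP, which heads the list, was proposed from its increase on these arrays, so it is left out of these counts and has no test.

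**Figure D1:**
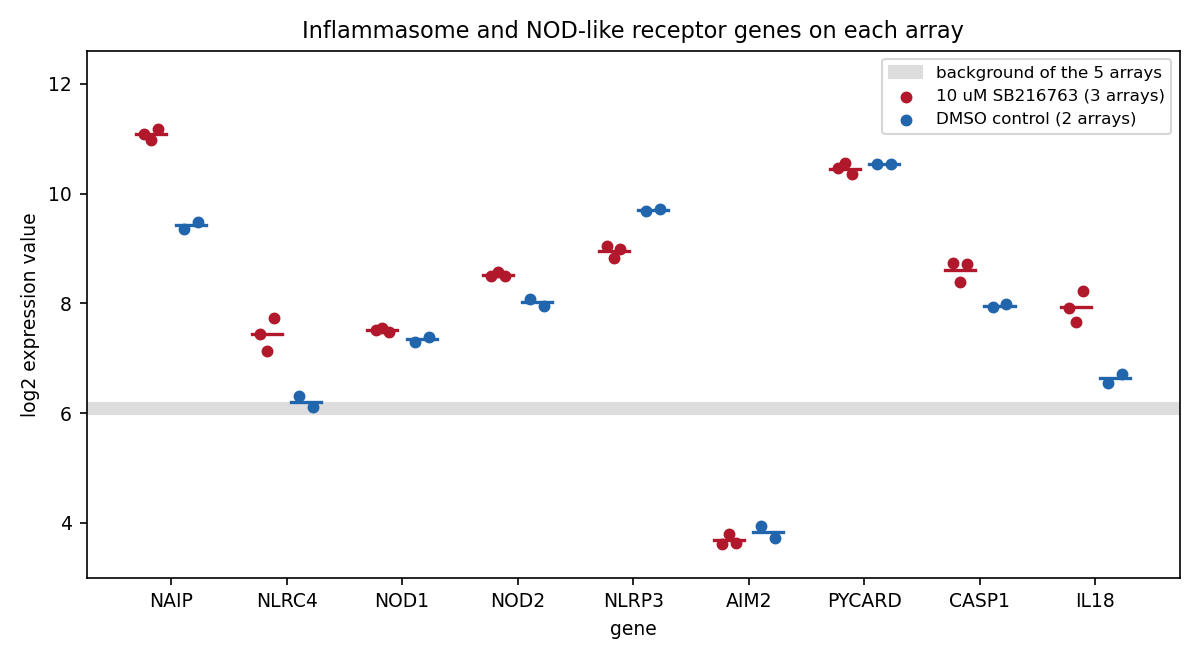
Log2 expression value (y axis) of each member (x axis) on the 3 SB216763 arrays (red, left) and the 2 control arrays (blue, right), with a line at each group's mean and the range of background over the arrays as a grey band. For NAIP every SB216763 array lay above both control arrays, at 10.98 to 11.17 against 9.36 and 9.49, while AIM2 lay below background on all 5.

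NAIP, the sensor that gives NLRC4 its ligand specificity, had values of 11.09, 10.98 and 11.17 on the SB216763 arrays, against 9.36 and 9.49 on the control arrays. The lowest SB216763 array was 1.49 above the highest control array, and the arrays of each group lay within 0.19 of each other. NAIP averaged 11.08 ± 0.10 (SD, n = 3) with SB216763 and 9.42 ± 0.10 (SD, n = 2) in controls. The difference was 1.66 (SE 0.09), a 3.15-fold increase. A larger increase was seen for 3 of the 18417 genes, LOC441081 (described below) among them. Because NAIP was proposed from its increase on these arrays, its size and rank are a description and no support. The annotation names NAIP for 3 probes, of which 2 hold identical values on every array and so count as 1 measurement. That pair read 11.02, 10.92 and 11.10 with SB216763 against 9.28 and 9.43 in controls, also a difference of 1.66 (SE 0.09). RefSeq lists the pseudogenes NAIPP1, NAIPP2, NAIPP3 and NAIPP4 on chromosome 5, as it does NAIP, so which copies the probes read is uncertain.

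NLRC4, the partner that assembles into the wheel-shaped inflammasome once NAIP has bound its ligand, had values of 7.44, 7.13 and 7.74 with SB216763, against 6.31 and 6.11 in controls. The groups lay 0.82 apart, and of the control arrays 1 was above background. The difference was 1.23 (SE 0.17), a 2.34-fold increase, with an adjusted p of 0.00434 by limma. NLRC4 also had the widest spread of the members among the SB216763 arrays, 0.62.

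IL18, a cytokine that CASP1 matures and that stimulates interferon gamma release, had values of 7.92, 7.66 and 8.22 with SB216763, against 6.55 and 6.72 in controls. Every array was above background, and the groups lay 0.94 apart. The difference was 1.30 (SE 0.15), a 2.46-fold increase (adjusted p = 0.00253 by limma), and 21 genes had a larger increase. CASP1, the protease at the centre of the pathway, had values of 8.73, 8.38 and 8.71 with SB216763, against 7.94 and 7.98 in controls. The difference of 0.65 (SE 0.12, adjusted p = 0.0126 by limma) is 1.57-fold. SB216763 replicate 2 was the lowest of its group for NAIP, NLRC4, IL18, CASP1 and NLRP3. The same array was the lowest for 64.8% of the 1328 genes called higher on these arrays.

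NOD2, the receptor for muramyl dipeptide, had values of 8.50, 8.57 and 8.49 with SB216763, against 8.08 and 7.95 in controls. It rose by 0.50 (SE 0.08), 1.42-fold, with an adjusted p of 0.0082 by limma. NOD1, which senses another cell wall fragment, read 7.52, 7.55 and 7.47 with SB216763 and 7.30 and 7.39 in controls. Its groups lay only 0.08 apart, and the difference of 0.17 (SE 0.08, adjusted p = 0.225 by limma) was not called, with a 95% interval of -0.01 to 0.35. Whether the 2 receptors differ in their response was not tested.

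NLRP3, the receptor that responds to potassium loss and membrane damage, was the member called lower. It had values of 9.04, 8.83 and 8.99 with SB216763, against 9.68 and 9.72 in controls, with a gap of 0.63 between the groups. The difference was -0.74 (SE 0.09, adjusted p = 0.0028 by limma), so that controls were 1.67-fold brighter. PYCARD, the adaptor that links NLRP3 and AIM2 to CASP1, read 10.46, 10.55 and 10.35 with SB216763, overlapping the control values of 10.53 and 10.54. Its difference was -0.08 (SE 0.09, adjusted p = 0.644 by limma), with a 95% interval of -0.28 to 0.12. AIM2 was at 3.62 to 3.79 with SB216763 and at 3.95 and 3.73 in controls, not above background on any array, so its difference of -0.16 (SE 0.10, adjusted p = 0.367 by limma) has no fold.

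The calls needed each control array. Without control replicate 1 or without control replicate 2, limma called 0 of the 8 members, although 4 higher and 1 lower kept an unadjusted p under 0.05 in each case. Over all genes it then called 1 and 0. CASP1 also lost its call without SB216763 replicate 1, with a difference of 0.58 and an adjusted p of 0.0533. An ordinary linear model without moderation called 0 of the 8 members and 251 genes in all.

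**Figure D2:**
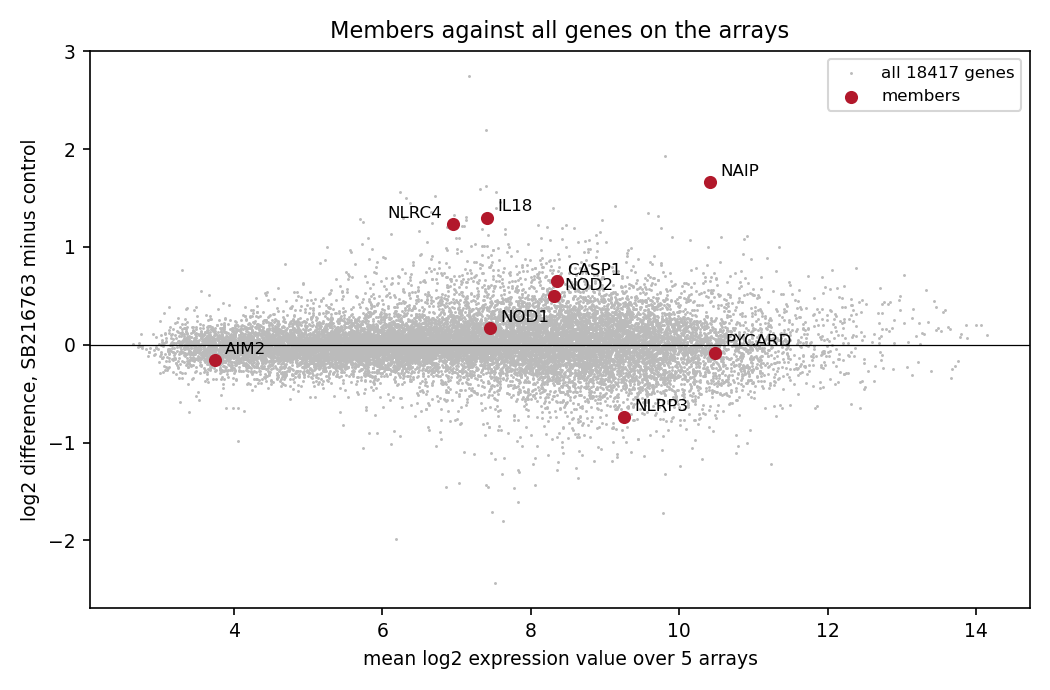
Log2 difference, SB216763 minus control (y axis), against the mean log2 value over all 5 arrays (x axis), for all 18417 genes (grey points) and the 9 members (red points). NAIP at 1.66, IL18 at 1.30 and NLRC4 at 1.23 stand among the largest increases, NLRP3 at -0.74 below most genes, and PYCARD at -0.08 in the middle of the cloud. NAIP was proposed from its increase on these arrays, so its place here is no support.

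Promoter windows of 300 bases, from 250 before to 50 after the start of transcription, were read from RefSeq (GRCh38.p14). They were available for 6 members, with 9 windows. No window was available for NAIP, CASP1 and IL18, so the search below does not cover them. Those of the called receptors are shown because these genes went in different directions, NLRC4 and NOD2 up and NLRP3 down. NLRC4 has 3 windows and NOD2 has 2, and the first of each is printed, 5′ to 3′ on the gene's strand. Capitals mark the match to the E-box CACGTG. The windows lie at chr2:32265694-32265993 on the minus strand, chr16:50696698-50696997 on the plus strand and chr1:247415923-247416222 on the plus strand.
NLRC4: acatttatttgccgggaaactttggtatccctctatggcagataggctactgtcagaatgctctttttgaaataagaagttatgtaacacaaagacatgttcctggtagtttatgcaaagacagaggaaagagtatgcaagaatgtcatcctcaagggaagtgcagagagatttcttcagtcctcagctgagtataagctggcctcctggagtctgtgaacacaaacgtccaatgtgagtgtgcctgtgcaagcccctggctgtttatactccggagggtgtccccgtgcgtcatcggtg
NOD2: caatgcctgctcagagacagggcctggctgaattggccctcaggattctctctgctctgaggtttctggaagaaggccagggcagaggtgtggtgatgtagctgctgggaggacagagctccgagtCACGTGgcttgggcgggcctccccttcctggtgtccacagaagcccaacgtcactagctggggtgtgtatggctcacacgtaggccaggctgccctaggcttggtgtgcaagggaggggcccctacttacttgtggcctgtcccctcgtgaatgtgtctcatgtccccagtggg
NLRP3: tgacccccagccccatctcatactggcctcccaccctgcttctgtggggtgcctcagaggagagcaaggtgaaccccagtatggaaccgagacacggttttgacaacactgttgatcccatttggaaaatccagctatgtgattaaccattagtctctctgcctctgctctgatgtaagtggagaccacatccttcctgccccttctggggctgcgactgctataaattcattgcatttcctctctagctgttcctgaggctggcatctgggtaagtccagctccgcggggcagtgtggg

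In NOD2 the E-box begins at base -124 from the start site, and 7.26% of all 35116 windows hold one on either strand. The windows were also searched, on both strands, for CTTTGAT of TCF/LEF (2.62% of all windows), TGACGTCA of CREB (1.85%), GGGACTTTC of NF-kB (0.387%), TTCNNNGAA of STAT (7.66%), GAGGAAGT of PU.1 (2.59%) and GTAAACA of FOXO (3.42%). None of these letters occurs in the 3 windows printed. In the other 6 member windows the search found a PU.1 match in PYCARD, beginning at base 8 after the start. A match describes letters and not binding.

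NAIP lies in a stretch of chromosome 5 that is present in several copies, together with SMN1, SERF1A and GTF2H2. LOC441081, a transcribed pseudogene that RefSeq places in this stretch, next in order after NAIPP1 and GUSBP15, differed about as much as NAIP; it was chosen after its values were seen and has no test here. Its 5 probes differed by 1.67 to 1.93. The brightest of them read 10.60, 10.55 and 10.58 with SB216763, against 8.66 and 8.63 in controls. Probes of the other genes of the stretch name several genes each and were not in the main test. The 3 probes that name SMN1 and SMN2 together differed by -0.21 (SE 0.11 each), and the 3 that name SERF1A and SERF1B by -0.11 (SE 0.08 each). After rounding, the 3 probes of SERF1A and SERF1B read the same on every array, so they are not separate measurements. The same holds for a pair of the SMN1 and SMN2 probes and a pair of the GTF2H2 probes. The 5 probes that name the copies of GTF2H2 differed by 0.07 to 0.16, and the probe that names OCLN and OCLNP1 by 0.64 (SE 0.14). Of further genes near them with a probe of their own, limma called none of BDP1, MCCC2, CARTPT, RAD17, MARVELD2 and CDK7, with differences from -0.20 for CARTPT, which was not above background, to 0.28 for RAD17. Each of these 6 had an unadjusted p over 0.05.

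**Figure D3:**
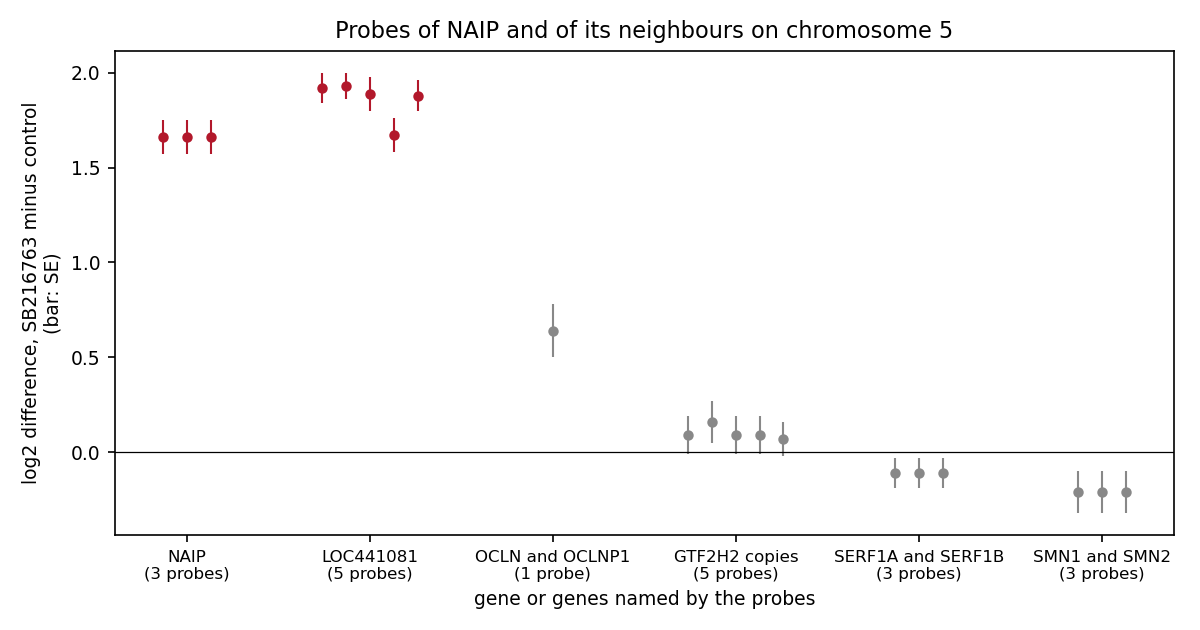
Log2 difference, SB216763 minus control, with SE as bars (y axis), for each probe of NAIP and LOC441081 (red) and of neighbouring genes whose probes name several genes (grey), grouped on the x axis by the genes named. All NAIP and LOC441081 probes lie between 1.66 and 1.93, while those of SMN1 and SMN2 lie at -0.21. Of the NAIP probes 2 hold identical values. After rounding, so do all probes of SERF1A and SERF1B, a pair of those of SMN1 and SMN2 and a pair of those of GTF2H2.

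Of 17 measured further NOD-like receptors, limma called 2 higher and 0 lower, 11.8% of the list against 13.1% of all genes, so the share was near the background. An unadjusted p under 0.05 was found for 5 of the 17 and for 4880 of the 18417 genes. The median was -0.01, and only 5 of the 17 were above background on all arrays, so most of the family is dim in these cells. CIITA, the master regulator of MHC class II genes, read 7.85, 7.99 and 7.82 with SB216763 against 7.39 and 7.54 in controls. It rose by 0.42 (SE 0.09, adjusted p = 0.0229 by limma). NLRP12 was called with a difference of 0.42 (SE 0.09, adjusted p = 0.0269) but was above background on no array. NLRP10 and NLRP11, the next by p, were also below background, with differences of -0.24 and -0.25. Of the 17, 0 were called higher without control replicate 1, without control replicate 2 and without SB216763 replicate 1, and 1 without SB216763 replicate 3.

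Of 34 measured partners of inflammasomes and of pyroptosis, 3 were called higher and 2 lower, with a median of 0.03. That is 14.7% of the list against 13.1% of all genes, again near that share. But 17 of the 34 were above background on no array and 16 on all, so dim genes weigh in both figures. Every called gene except MNDA was above background on all arrays, and of all such genes 18.2% were called. Without either control array 0 were called in both directions, without SB216763 replicate 2 there were 6 higher, and without SB216763 replicate 1 there was 1 lower. MEFV, which encodes the inflammasome sensor pyrin, had values of 8.98, 9.09 and 8.84 with SB216763, against 8.13 and 8.24 in controls. It rose by 0.79 (SE 0.10), 1.72-fold, with an adjusted p of 0.00288 by limma. CASP4, the protease that senses lipopolysaccharide in the cytosol, rose by 0.36 (SE 0.09, adjusted p = 0.0346 by limma). MNDA, a relative of AIM2, was called higher by 0.67 but was above background on no array. IL1RAP, the shared subunit of IL1 family receptors, had values of 8.95, 8.86 and 9.05 with SB216763 against 9.73 and 9.86 in controls. It fell by 0.84 (SE 0.09, adjusted p = 0.00193 by limma), and the helicase gene DHX33 fell by 0.46 (SE 0.08, adjusted p = 0.0122).

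IL1B and GSDMD, substrates of CASP1 named here after their values were seen, were not called. IL1B read 6.96, 6.85 and 7.04 with SB216763 against 6.53 and 6.69 in controls, a difference of 0.34 (SE 0.09, adjusted p = 0.0534 by limma). Its groups lay 0.16 apart, and its adjusted p was just over the threshold. GSDMD, which encodes gasdermin D, read 8.68, 8.72 and 8.63 with SB216763 against 8.65 and 8.73 in controls, with overlapping groups and a difference of -0.02 (SE 0.08, adjusted p = 0.932). NEK7, the kinase that binds NLRP3, likewise named after its values were seen, differed by -0.34 (SE 0.11, adjusted p = 0.101), again without a call.

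Of 24 measured genes that act with NOD1 and NOD2, 7 were called higher and 1 lower, 33.3% of the list against 13.1% of all genes, with a median of 0.22. All 24 were above background on all arrays, and of the 12071 such genes 18.2% were called. SLC15A2, a transporter that brings bacterial peptides into the cell, read 10.15, 10.00 and 10.10 with SB216763 against 9.29 and 9.40 in controls. It rose by 0.74 (SE 0.08), 1.67-fold, with an adjusted p of 0.00233 by limma. SLC15A3 and SLC15A4, the endolysosomal transporters of the same family, rose by 0.42 (SE 0.08, adjusted p = 0.0166) and 0.41 (SE 0.11, adjusted p = 0.0463). RIPK2, the kinase that both receptors recruit, read 8.66, 8.57 and 8.77 with SB216763 against 8.26 and 8.17 in controls. It rose by 0.45 (SE 0.09, adjusted p = 0.0166 by limma). The last 3 genes and RBCK1 were named after their values were seen.

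ERBIN, which binds NOD2 at the membrane, rose by 0.46 (SE 0.09, adjusted p = 0.014 by limma), and RBCK1, a subunit of the ligase complex that builds linear ubiquitin chains, by 0.44 (SE 0.08, adjusted p = 0.0148). Both NFKBIA and TNFAIP3 are feedback inhibitors that NF-kB induces, and they went opposite ways. NFKBIA, which holds NF-kB in the cytoplasm, averaged 9.49 ± 0.06 (SD, n = 3) with SB216763 and 9.01 ± 0.01 (SD, n = 2) in controls, a rise of 0.48 (SE 0.08, adjusted p = 0.0082 by limma). TNFAIP3, the ubiquitin-editing enzyme A20, had values of 7.37, 7.31 and 7.21 with SB216763 against 7.96 and 7.89 in controls. It fell by 0.63 (SE 0.08, adjusted p = 0.00412 by limma). The number called higher in this list was 1 without SB216763 replicate 1 and 0 with an ordinary linear model. As for the members, the calls in this list needed each control array.

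NAIP also carries the BIR domains of the inhibitor of apoptosis family. Of the 6 measured other members of that family, limma called 0 in either direction, where 13.1% of all genes were called. With so few genes, a count of 0 cannot be told apart from that share. An ordinary linear model also called 0, as it did in every list, and it called 251 genes in all. An unadjusted p under 0.05 was found for 2 of the 6, and for 4880 of the 18417 genes. BIRC2, a ubiquitin ligase of TNF receptor signalling, differed by 0.38 (SE 0.11, adjusted p = 0.0693), and BIRC5, the mitotic protein survivin, by -0.23 (SE 0.09, adjusted p = 0.125). BIRC6 differed by 0.11 and XIAP by 0.05. In the alternatives, 1 gene of the family was called higher when dim genes were left out, with a variance trend and robust settings, with array weights and without SB216763 replicate 2.

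**Figure D4:**
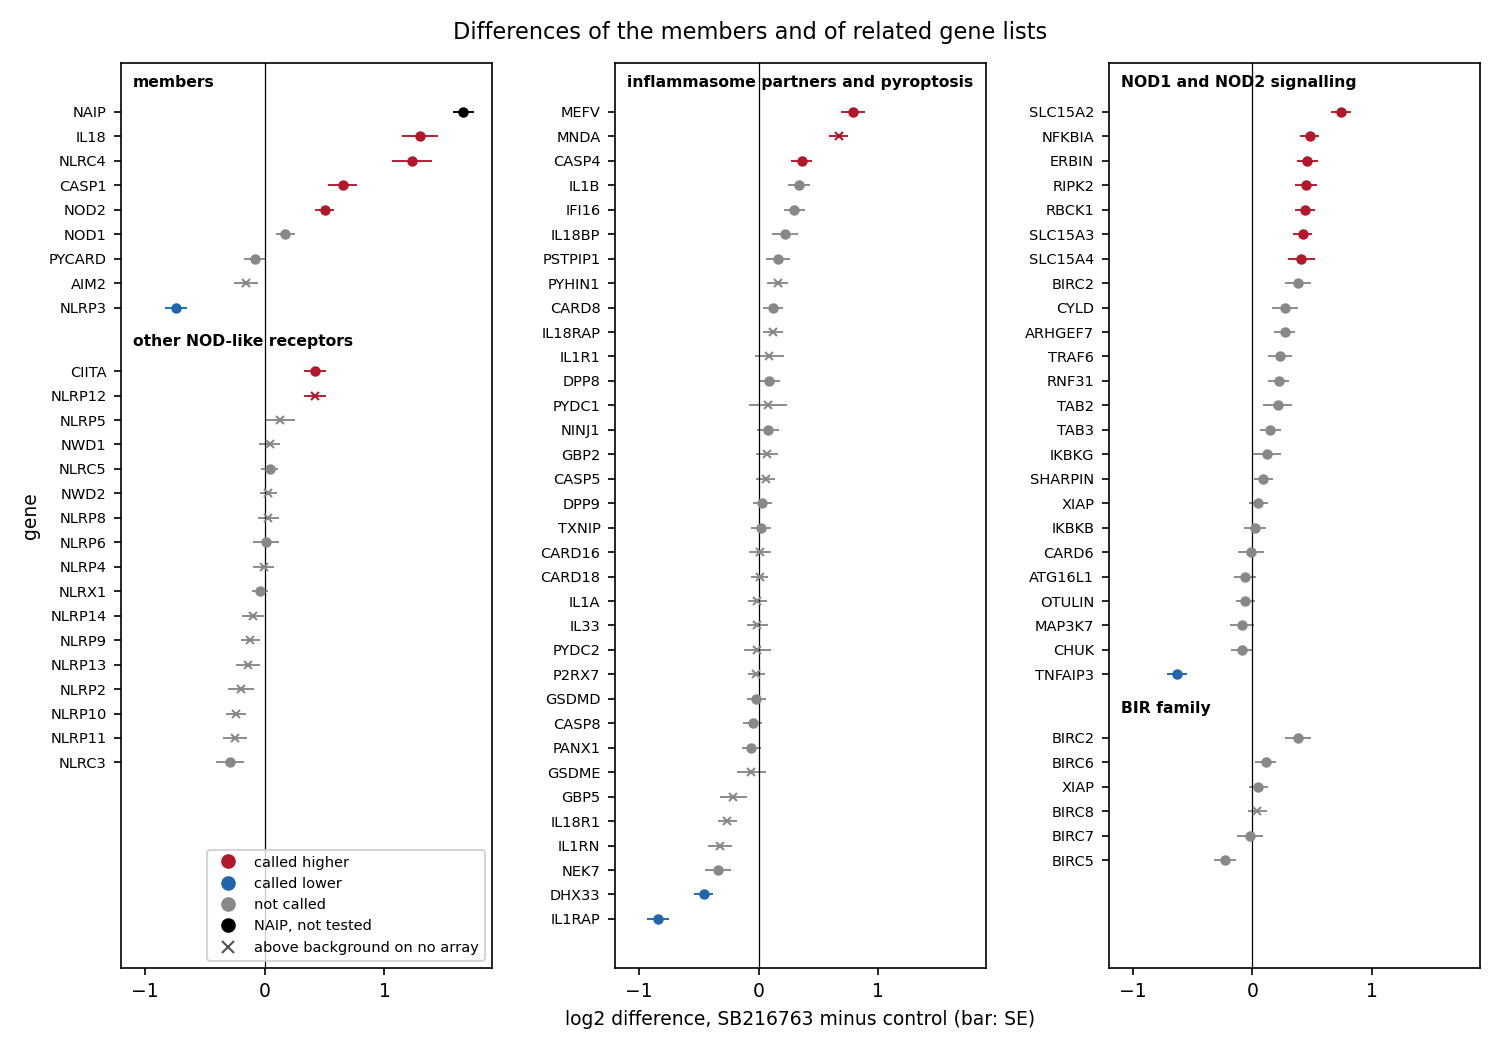
Log2 difference, SB216763 minus control, with SE as bars (x axis), for each gene (y axis) of the members and of 4 related lists; red and blue mark genes called higher and lower, grey genes not called, black NAIP, and crosses genes above background on no array. NAIP, IL18 and NLRC4 lie beyond 1, SLC15A2 and MEFV at 0.74 and 0.79 lead their lists, and the BIR family holds no called gene.

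Of the genes above background on all arrays, the 5 whose log2 values, centred on each gene's mean, lay closest to those of NAIP over the 5 arrays were FYB1, ATP10D, DNASE2, MANBA and TEX19. The root mean square distance was 0.077 to 0.146, and their differences were 1.42 to 1.62. FYB1 is an adaptor of immune cell signalling, ATP10D a lipid flippase, and DNASE2 and MANBA are lysosomal enzymes. The closest genes to NLRC4 were AMZ2P1, PIP4P2, MYOM1, PRDM1 and IL18, the last at a distance of 0.124. IL18 itself was closest to PIP4P2, GIMAP2, CCDC146, MANBA and MYOM1 (0.104 to 0.120). For NLRP3 they were ACSL1, XBP1, CD180, HELLS and GMEB1 (0.023 to 0.038), for NOD2 ACTMAP, PARP6, TBC1D2, NUDT17 and PTGS1 (0.021 to 0.036), and for CASP1 ORMDL1, ZFAND1, C5, CCNB1IP1 and ZNF248 (0.021 to 0.043). These distances describe 5 arrays and rest mostly on the size of the difference between the groups.

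RS4;11 is known as a line of B cell precursors, and markers of that cell type were largely dim on these arrays; the identity of the line was not tested. Of 10 measured B cell precursor markers 3 were above background on all arrays, and VPREB1, CD22, CD24, RAG1, RAG2 and DNTT were above it on none. The summed log2 values of the 10 were 56.5 to 57.5 with SB216763 and 56.7 on each control array, and limma called 0 of them. Of 13 monocyte and macrophage markers 11 were above background on all arrays, CD163 and S100A12 on none. Their sum was 102.7 to 105.2 with SB216763 against 99.7 on each control array. Of the 13, 4 were called higher, where 7.21% of all genes were, and 9 were not called, and the median difference was 0.15. Of the genes above background on all arrays, 18.2% were called in either direction. CD68, a lysosomal glycoprotein of macrophages, differed by 1.00 (SE 0.08), the receptor CSF3R by 1.23 (SE 0.11), lysozyme LYZ by 0.78 (SE 0.09) and the adaptor TYROBP by 0.70 (SE 0.08). Of the 9 without a call, MPO differed by -0.23 (SE 0.11), S100A9 by -0.08 (SE 0.17) and S100A12 by -0.04 (SE 0.11). ITGAM differed by 0.27 (SE 0.11), S100A8 by 0.16 (SE 0.08), FCN1 by 0.15 (SE 0.15), CSF1R by 0.11 (SE 0.08) and CD163 by 0.01 (SE 0.13). CD14 was close to background, at 6.14 to 6.59 with SB216763 and 6.37 and 6.32 in controls. In controls LYZ averaged 11.92, TYROBP 11.50, CD68 10.74, CSF1R 8.66 and CSF3R 7.73. ITGAM, S100A9, FCN1, S100A8 and MPO averaged 6.44 to 7.02 there. Of the B cell precursor markers above background on all arrays, IGLL1 averaged 8.43, PAX5 6.63 and CD79B 6.61 in controls. Of 8 T and NK cell markers 1, NKG7, was above background on all arrays and was called higher by 0.88 (SE 0.08), and the sum was 46.5 to 47.4 with SB216763 and 46.4 to 46.6 in controls. The part of the 4 called monocyte markers in the increases of NAIP, NLRC4, CASP1 and IL18 was not tested.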

How the data were processed

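The authors deposited log2 values for 33297 probes on each of 5 arrays; the log2 scale follows from their range, 1.95 to 14.84. Affymetrix Expression Console produced them, per the submitters' processing notes. Its version, how probes were summarised and which build was used: not given in the sources used here. Array medians lay between 6.77 and 6.84, and no further normalization was applied. The number of arrays limits the precision.

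Gene names came from the platform annotation. Of the probes, 19460 had exactly 1 gene symbol, 1754 several and 12083 none, and each of 18417 genes was represented by its brightest probe on average. The groups, taken from the sample titles, were compared in R 4.3.3 by limma 3.58.1 (functions lmFit and eBayes, two-sided, 7.62 degrees of freedom) and Benjamini-Hochberg adjustment over all genes. The procedure was tested on simulated data. No fold is given for genes that were below background throughout.

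The members, lists and rules were chosen with earlier results of these data known. Named were every member and NAIP probe, the 4 genes of each list with the smallest p, all called genes of a list with 5 or fewer, NAIP's neighbours and the 5 genes closest to NAIP and to each called member. Genes of a list that lacked their own probe were not analysed here. The alternatives changed the filter (dim genes removed), the scaling (quantile normalization, centred arrays), the probes (averaged per gene, or each tested singly), the model (trend and robust variance, ordinary variance, weights per array, a block for the replicate number) and the arrays (each left out). Promoter windows came from RefSeq, and figures were drawn with matplotlib 3.10.9.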

Additional observations from a re-analysis of the deposited data

How the results depend on the processing

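NAIP kept its difference under quantile normalization, centring, array weights, the replicate block and each left-out array, which gave 1.59 to 1.73 for the probe with the highest mean and 1.58 to 1.73 for the identical pair. No member changed direction in any alternative. Calls depended on moderation and on the controls. An ordinary linear model called 0 genes higher and 0 lower in every list, the members included. Leaving out each array in turn gave 0 to 4 members called higher and 0 to 1 lower, 0 to 2 other receptors higher, 0 to 6 inflammasome partners higher and 0 to 2 lower, 0 to 10 NOD signalling genes higher and 0 to 1 lower, and 0 to 1 BIR genes higher. With 1 control left, that array's spread is taken from the SB216763 arrays. Array weights gave 6 partners higher and 5 lower, 13 NOD signalling genes higher, 1 other receptor lower, and 1 BIR gene higher and 1 lower. The filter on dim genes gave 1 other receptor higher and 1 BIR gene higher, trend with robust settings 1 BIR gene higher, and all probes tested singly 0 other receptors higher. With the replicate number as a block, which only the titles share, 1 other receptor was called higher, and the counts for the members were unchanged at 4 and 1. Over all genes the count of 2418 became 251 without moderation, 4720 with array weights, 1 and 0 without control replicate 1 and 2, 993 without SB216763 replicate 1 and 1606 without SB216763 replicate 3. The causes of these shifts were not tested. AIM2 gave no value under the filter on dim genes. Genes near background, among them NLRC4 in controls, have differences that signal over background limits.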

Other observations

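The probe that names NLRP1 together with LOC728392 read 7.05, 7.05 and 7.14 with SB216763 against 7.28 and 7.27 in controls, a difference of -0.20 (SE 0.08), and which of both genes it reads is not settled by the annotation. The probes that name AK6 and TAF9 together, near NAIP on the same chromosome, differed by -0.29 and -0.27.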
